A study of Mus musculus with 4 samples.

Results

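Strong SOX2-only regions are stretches of accessible chromatin that were called clearly in both libraries of cells kept by SOX2 and in neither library of cells kept by SOX17FNV. They were chosen by measured values. The peaks of all 4 libraries were pooled and merged where they overlapped by at least 1 bp, and a region was kept when each SOX2 library held a peak with a -log10 q of at least 4 in it and no SOX17FNV library held any peak. Chromosome 14, the sex chromosomes and the 120 to 150 Mb stretch of chromosome 6 were not used here. Of 154888 regions, 1246 met the rule, which is 0.804% of all regions, and this share is fixed by the rule and is no result about the members. The mirror rule, with the groups exchanged, gave 797 strong SOX17FNV-only regions, or 0.515%. Another 52950 regions were called in all 4 libraries. A further 5089 regions were called in both SOX2 libraries and in no SOX17FNV library, with a -log10 q under 4 in at least 1 of them. These are the weaker SOX2-only regions.

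The cells, of the mouse embryonic stem cell line 2TS22C, had their own SOX2 silenced. All of them received DOX and grew in 2i serum/LIF medium, a culture that favours naive pluripotency. A lentivirus supplied SOX2 to 1 group and SOX17FNV, an engineered form of SOX17, to the other, with 2 biological replicates each and 900000 starting cells per library. Whether a group is 1 clone, and the promoter that drives the lentiviral gene, are not stated in the labels. Gene ends of pluripotency genes were open as the label calls for: 12 of 12 general pluripotency genes and 11 or 12 of 13 naive genes had a called region within 1 kb of an end in each library. Gene ends of fibroblast genes were called for 7 or 8 of 12 and those of housekeeping genes for 10 or 11 of 12.

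SOX2 is a DNA-binding protein of the SOX family that holds stem cells in pluripotency, largely by binding enhancers side by side with OCT4. Enhancers are switches that can lie far from the gene they act on. SOX17 is a relative that works in endoderm and in blood vessels and recognises nearly the same short DNA motif. ATAC-seq uses a transposase that cuts DNA where it is not packed tightly by nucleosomes, so a peak marks open chromatin. In a bulk library, fewer cells with an open site and a site less open in every cell cannot be told apart.

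Few members lay on a promoter, and those that did give the only sequences that can be read from the tables used here. Among 1190 members on chromosomes with an entry in the RefSeq promoter table (GRCm38.p6, the coordinates of mm10), 17 covered an annotated transcription start site (1.43%) and 44 lay within 1 kb of one (3.70%). The 17 members overlapped 19 promoter windows, each running from 250 bases before to 50 after a start site, of 17 genes. Of these genes, 8 code for proteins. The windows were searched on both strands for the SOX letters CATTGT and CTTTGT and the octamer ATGCAAAT, the letters OCT4 binds. CTTTGT occurred in 8 of the 19 windows and CATTGT in 3. Either SOX motif occurred in 10 (52.6%), where 28.3% of all 30038 windows hold one. The octamer was in none of the 19 and in 1.75% of all windows, a share at which 19 windows would most often hold none. All 3 windows of Gm34684 overlap the same member, and 2 of them share most of their sequence. Each of these 3 holds CTTTGT and is counted in the 8 and in the 10, so these counts are not of separate members. Many windows reach beyond their member, and letters were counted over the whole window. A match of letters is a description and not a site that was measured.

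The promoters of 5 of the 8 protein-coding genes are printed: the 4 with SOX letters and 1 of the 4 without. Each is the 250 bases before the start site, 5′ to 3′ on the gene's strand, with CATTGT and CTTTGT or their reverse complements ACAATG and ACAAAG in capitals. They are Mobp at chr9:120149492-120149741 on the plus strand, Prickle2 at chr6:92567367-92567616 on the minus strand, Pigr at chr1:130826434-130826683, Zfp358 at chr8:3492888-3493137 and Serpina3i at chr12:104262872-104263121, the last 3 on the plus strand.
Mobp: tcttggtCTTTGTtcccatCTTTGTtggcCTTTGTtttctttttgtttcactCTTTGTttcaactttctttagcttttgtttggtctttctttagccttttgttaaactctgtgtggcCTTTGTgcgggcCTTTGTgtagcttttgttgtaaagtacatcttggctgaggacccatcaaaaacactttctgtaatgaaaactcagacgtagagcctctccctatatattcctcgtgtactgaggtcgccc
Prickle2: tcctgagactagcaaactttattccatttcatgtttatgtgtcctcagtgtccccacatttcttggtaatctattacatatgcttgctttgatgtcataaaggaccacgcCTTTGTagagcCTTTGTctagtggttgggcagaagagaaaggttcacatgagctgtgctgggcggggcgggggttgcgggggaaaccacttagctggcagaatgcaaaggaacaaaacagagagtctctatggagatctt
Pigr: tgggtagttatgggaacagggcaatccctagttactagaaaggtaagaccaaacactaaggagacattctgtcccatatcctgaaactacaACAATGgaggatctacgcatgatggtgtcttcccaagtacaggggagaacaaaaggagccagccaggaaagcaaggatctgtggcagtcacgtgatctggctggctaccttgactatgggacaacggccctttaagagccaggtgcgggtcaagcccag
Zfp358: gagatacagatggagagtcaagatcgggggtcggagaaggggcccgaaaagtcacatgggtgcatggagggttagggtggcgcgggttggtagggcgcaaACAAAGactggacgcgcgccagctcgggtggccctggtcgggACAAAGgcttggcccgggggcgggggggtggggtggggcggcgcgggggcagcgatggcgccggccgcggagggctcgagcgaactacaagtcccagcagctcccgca
Serpina3i: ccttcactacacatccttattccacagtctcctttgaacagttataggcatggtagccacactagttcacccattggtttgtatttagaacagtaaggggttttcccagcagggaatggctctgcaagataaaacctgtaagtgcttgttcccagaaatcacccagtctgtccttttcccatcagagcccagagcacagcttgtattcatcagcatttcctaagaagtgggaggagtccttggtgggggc

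Mobp, which codes for a protein of the myelin sheath, had the strongest member at a gene end. Its region, chromosome 9 from 120149203 to 120150163, had summit pileups (the stack of reads at the highest point) of 46 and 53 in the SOX2 libraries. The deposited folds were 4.85 and 5.27, where a fold is the pileup plus 1 over the local background plus 1. The SOX17FNV libraries held no peak there, and pileups of 18 and 16 would have sufficed for a call at the same background. Relative to the start site, the SOX2 summits lay at -154 and -101 bases. The Mobp window holds CTTTGT 6 times, all between positions -243 and -115, close together in a stretch rich in T. No other of the 30038 windows holds as many. That cutoff is Mobp's own count, taken after it was seen, so this is a description and no test. Prickle2, a planar cell polarity gene, had pileups of 21 and 26, with summits at -47 and -85. Pigr, the receptor that carries antibodies across epithelia, had pileups of 28 and 24, with summits at -417 and -286, upstream of the printed stretch. Zfp358 had 36 and 33, with summits at 191 and 47 bases after the start. Serpina3i, of a protease inhibitor family, had 28 and 22. It holds none of the SOX letters in the printed stretch and its summits lay at -72 and -70. Myo10, Btla and Fbxo44, the coding genes not printed, hold none either, so 4 of the 8 coding promoters have these letters and 4 do not.

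Across all 1246 members the signal was moderate and was somewhat higher in SOX2 replicate 1. The median -log10 q was 8.35 in replicate 1 (4.02 to 31.7) and 5.999 in replicate 2 (4.01 to 27.4), and it was higher in replicate 1 at 956 members and lower at 290. The -log10 q was also higher in replicate 1 at 43801 of 52950 regions called in all 4 libraries and at 3786 of 5089 weaker SOX2-only regions. The median fold over local background was 4.25 (1.99 to 9.15) and 3.66 (2.30 to 8.15). Pileups had medians of 27 (17 to 69) and 24 (19 to 64). Within their own lists the members sat at median percentiles of 65.7 and 65.6 by -log10 q, so they were above the middle of each list and mostly not among its strongest peaks.

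**Figure D1:**
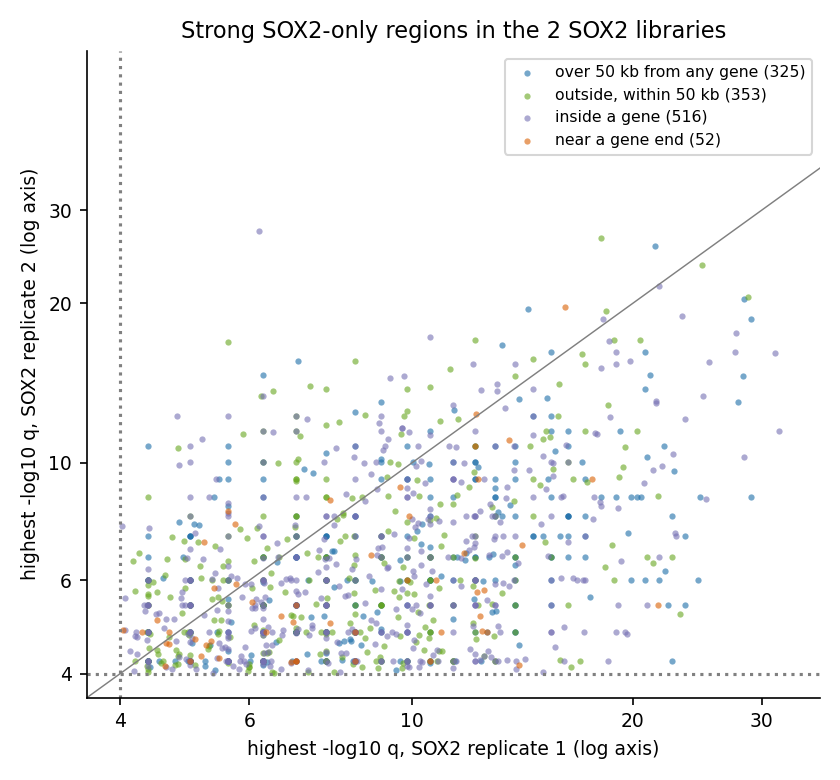
Highest -log10 q of each strong SOX2-only region in SOX2 replicate 1 (horizontal, log axis) and SOX2 replicate 2 (vertical, log axis). Each point is 1 of the 1246 regions, coloured by its place, the dotted lines mark the threshold of 4 used to choose them, and the solid line marks equal values. Points under the line (956) had the higher value in replicate 1.

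Scaled to the regions called in all libraries, the order of the replicates turned. The shared regions had median pileups of 35 and 28 in the SOX2 libraries, and the members' pileup relative to these was lower in replicate 1, with a median ratio of replicate 1 to replicate 2 of 0.870 (0.655 to 1.17 between the 10th and 90th percentile of members). That was not particular to the members: the median ratio was 0.857 for weaker SOX2-only regions and 0.960 for shared ones. For strong SOX17FNV-only regions it was 0.856 between their own 2 libraries. Across members the log2 pileups of the replicates had a Pearson correlation of 0.651, given as a description, since the members are not independent and were chosen by both values.

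The replicates placed the summits of the members close together. The distance between the highest summits of the SOX2 libraries had a median of 40.5 bp, and it was within 50 bp at 721 members (57.9%) and within 200 bp at 1158 (92.9%). For regions called in all 4 libraries the SOX2 pair had a median distance of 58 bp, with 45.8% within 50 bp, and for the weaker SOX2-only regions 75 bp, with 36.9%. Strong SOX17FNV-only regions had a median of 29 bp between their own 2 libraries, with 69.4% within 50 bp, so closely placed summits were also found in the mirror set. A single summit in both libraries was called at 730 members (58.6%). Members were 577 bp wide in the median (174 to 2034), against 414 bp for strong SOX17FNV-only regions, 398 bp for weaker SOX2-only regions and 833 bp for shared ones. A merged width grows with the number and the length of the peaks in it, and the lists differ in both. With SOX2 replicate 1 left out of the rule the median width was 378 bp, and with SOX2 replicate 2 left out 368 bp.

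Most members lay away from gene ends, and 26.1% lay far from any gene. Place was taken relative to protein-coding gene spans, and it was not used by the rule. Of the 1246 members, 52 (4.17%, exact binomial 95% interval 3.13 to 5.44) lay within 1 kb of a gene end. Another 516 (41.4%, 38.7 to 44.2) lay inside a gene, 353 (28.3%) outside but within 50 kb, and 325 (26.1%, 23.7 to 28.6) over 50 kb from any gene. The gene-end share was also low in strong SOX17FNV-only regions, at 4.64% (3.29 to 6.34), and 5.40% in weaker SOX2-only regions. Regions called in all 4 libraries had 26.0% near a gene end and 10.5% over 50 kb from any gene. The share of gene-distant regions was 18.6% (15.9 to 21.4) among strong SOX17FNV-only regions, 17.9% among weaker SOX2-only regions and 13.4% among all regions. The interval of the members and that of the mirror set do not overlap, but intervals cover counting error only. Regions are not replicates, and with 2 libraries against 2 the smallest exact permutation p is 0.333, so the difference has no test over libraries. Relaxing the rule by leaving out 1 library at a time moved the members' share to between 21.2 and 25.3%.

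**Figure D2:**
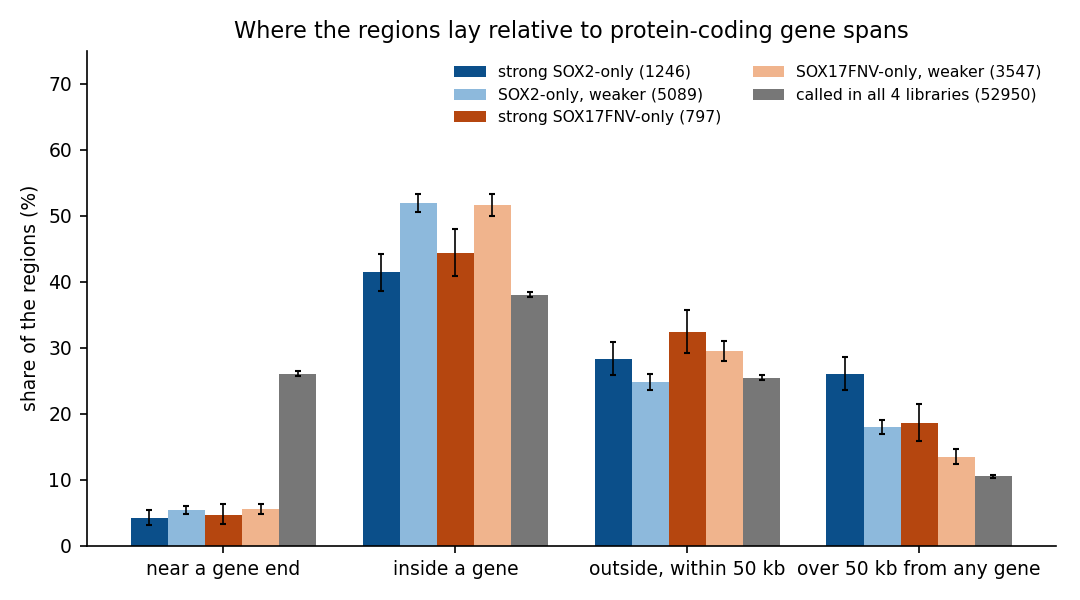
Share of regions (vertical, %) near a gene end, inside a gene, outside but within 50 kb, and over 50 kb from any protein-coding gene, for 5 sets of regions whose sizes stand in the legend. Bars are shares and whiskers exact binomial 95% intervals; strong SOX2-only regions have the lowest share near gene ends (4.17%) and the highest share over 50 kb away (26.1%) of these 5 sets.

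Members were also far from start sites. The median distance of the members to the nearest annotated start was 30449.5 bp, against 22611 bp for strong SOX17FNV-only and 13081.5 bp for shared regions. Within 1 kb of a start lay 3.70% of members and 3.22% of strong SOX17FNV-only regions, against 23.9% of shared and 11.3% of all regions.

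The gene-distant share went along with peak strength in opposite ways in group-specific and shared regions. Taking the lowest -log10 q of the libraries that define a region, 17.9% of SOX2-only regions under 4, 24.0% between 4 and 6, 29.1% between 6 and 10 and 29.7% at 10 or above lay over 50 kb from any gene. SOX17FNV-only regions went from 13.4% to 17.3%, 21.0% and 26.1% over the same steps, the last from 23 regions. Shared regions went from 12.01% to 11.5%, 10.2% and 7.40%. The median local background under the members was 7.86 and 7.58 near gene ends and 4.17 and 5.02 over 50 kb from any gene in the SOX2 libraries, and its part in these shares was not tested.

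**Figure D3:**
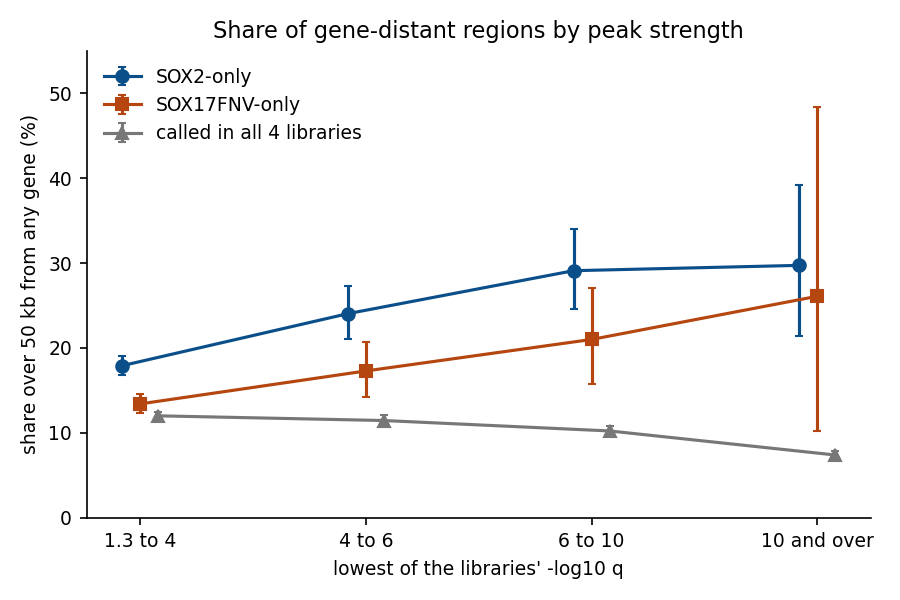
Share of regions over 50 kb from any protein-coding gene (vertical, %) by the lowest -log10 q of the libraries that called them (horizontal, 4 steps), for SOX2-only, SOX17FNV-only and shared regions. Whiskers are exact binomial 95% intervals; the share goes from 17.9 to 29.7% for SOX2-only regions and from 12.01 to 7.40% for shared ones.

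Lack of a peak is not lack of signal, so each member was set against the calling limit of the other lists. The lowest local background in a list, a guide to its depth, was 3.91 and 3.27 for SOX17FNV replicates 1 and 2 and 4.17 and 5.02 for those of SOX2, and the weakest summits listed had pileups of 11, 10, 12 and 13 in this order. At the local background of the members, a call would have needed a median pileup of 12 (11 to 51) in SOX17FNV replicate 1 and 11 (10 to 45) in replicate 2. The members' SOX2 pileups, scaled by the shared regions, correspond to medians of 27.1 and 19.7 in those libraries. All 1246 members lay at or above the needed pileup in both, which the rule largely fixes: the scaled values come from the SOX2 peaks it chose at a -log10 q of at least 4, while the lists call peaks from 1.3. The ratio of scaled to needed pileup, taken as the lower of the 2 libraries, had a median of 1.63, and it was at least 1.5 at 872 members (70.0%) and at least 2 at 215 (17.3%). In the mirror set 792 of 797 regions lay at or above the needed pileup of both SOX2 libraries, with a median ratio of 1.33 and 18 (2.26%) at 2 or more. A member's signal in a SOX17FNV library is known only to have been too low for a call.

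**Figure D4:**
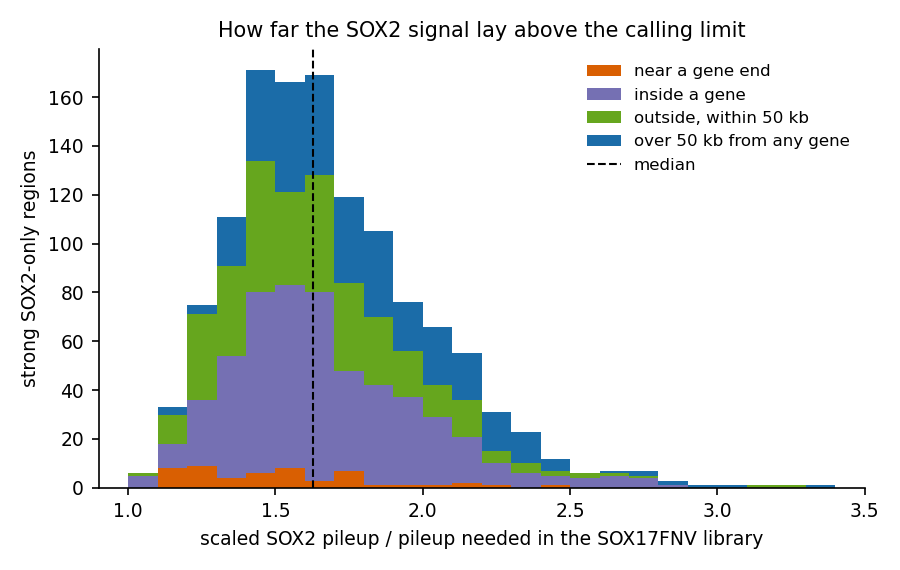
Number of strong SOX2-only regions (vertical) by the ratio of the scaled SOX2 pileup to the pileup a SOX17FNV library would have needed for a call (horizontal, lower of the 2 libraries), stacked by place. The dashed line marks the median of 1.63; all 1246 regions lie at or above 1, which the choice of strong SOX2 peaks largely fixes.

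Gene-distant members had lower pileups than gene-end members but stood higher over their lower local background. A threshold on -log10 q lets a smaller pileup pass at a lower background and asks there for a higher fold. The rule thus bears on the pileups, folds and ratios by place, and its part in their differences was not tested. Over 50 kb from any gene the median pileups were 25 and 23, the median folds 4.64 and 3.82, the median ratio to the limit was 1.73, and 85 of 325 (26.2%) reached 2. Near gene ends the median pileups were 34 and 28.5, the median folds 3.65 and 3.25, the median ratio was 1.49, and 5 of 52 (9.62%) reached 2. The nearest SOX17FNV peak lay a median of 13.857 kb from a gene-distant member and 2.183 kb from a gene-end member.

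The number of members depended on each library. With SOX17FNV replicate 1 left out of the rule 3164 regions passed, with SOX17FNV replicate 2 left out 1674, with SOX2 replicate 1 left out 2156 and with SOX2 replicate 2 left out 7177. The mirror counts were 1901, 4960, 3298 and 1372 in the same order. The excess of 449 SOX2-only over SOX17FNV-only regions therefore turned into a difference of -3286 without SOX17FNV replicate 2 and -1142 without SOX2 replicate 1, so no group is called the more open one from these counts.

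Members had fewer other regions around them, in the median, than the sets compared here, and most had a SOX17FNV peak within 10 kb. The nearest SOX17FNV peak lay a median of 5713 bp away (43 to 571671), within 500 bp at 56 members (4.49%), within 1 kb at 157 (12.6%) and within 10 kb at 801 (64.3%). For strong SOX17FNV-only regions the nearest SOX2 peak was a median of 4260 bp away, and within 10 kb at 73.0%. The nearest region called in all 4 libraries was a median of 12296.5 bp away, and it was within 10 kb at 565 members (45.3%). Within 100 kb a member had a median of 17 other regions around it, against 23 for strong SOX17FNV-only, 28 for shared and 26 for all regions. At 17.1% of members at most 5 other regions lay within 100 kb, against 10.2% of the mirror set and 5.51% of shared regions.

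A small set of members stood alone. There were 47 (3.77%) over 100 kb from any SOX17FNV peak, 32 of them also over 50 kb from any gene. In the mirror set 16 (2.01%) lay over 100 kb from any SOX2 peak. The SOX2 lists used were longer, at 112926 and 88318 peaks against 109117 and 83873 for SOX17FNV, so the 2 shares are not measured alike. The farthest lay on chromosome 16 from 47498075 to 47498612, 571671 bp from a SOX17FNV peak, and on chromosome 19 from 49258038 to 49258807, 568566 bp away. A further one lay inside Cntnap2, a neuronal adhesion gene, on chromosome 6 from 46081462 to 46081702, 455776 bp away.

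The 20 strongest members, by the lower of their percentiles in the 2 SOX2 lists, lay inside genes (10), within 50 kb of one (4) or farther out (6), and none lay near a gene end. The strongest lay 7.379 kb from Rbm25, a splicing factor gene, on chromosome 12 from 83624212 to 83624829. Its pileups were 44 and 45 in the SOX2 libraries, with folds of 8.05 and 7.53, while the SOX17FNV libraries held no peak where 12 and 11 would have sufficed. The member 120.522 kb from Cntn6, which codes for a contactin of neurons, had pileups of 46 and 41 and folds of 9.09 and 6.98, and the nearest SOX17FNV peak was 420691 bp away. Its ratio to the limit, 3.33, was the highest of the 20, whose lowest was 2.04. A member 63.777 kb from Kitl, the gene of the stem cell factor that binds KIT, had pileups of 50 and 39. A member 484.592 kb from Kcnj3, a potassium channel gene, had 42 and 48.

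Of the 10 genes that held one of the 20 inside their span, 3 are on the gene lists. Nrg1, which codes for neuregulin, a ligand of ERBB receptors, had a member with pileups of 48 and 48 on chromosome 8 from 32044198 to 32045190. Alk, a receptor tyrosine kinase gene, had one with 51 and 49 on chromosome 17 from 72556701 to 72557681. Eya1, a developmental transcription cofactor, had one with 47 and 36 on chromosome 1 from 14225323 to 14226276. The others inside genes lay in Myo6, LOC108168726, St8sia6, Serpinb1b, Plch1, Cntnap5a and Aff3. The rest of the 20 were nearest to Itprid1, Pdk1, 4931417E11Rik, Thap1, Bach2 and Cdh8. Summits in the SOX2 libraries lay within 110 bp of each other at 19 of the 20.

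**Figure D5:**
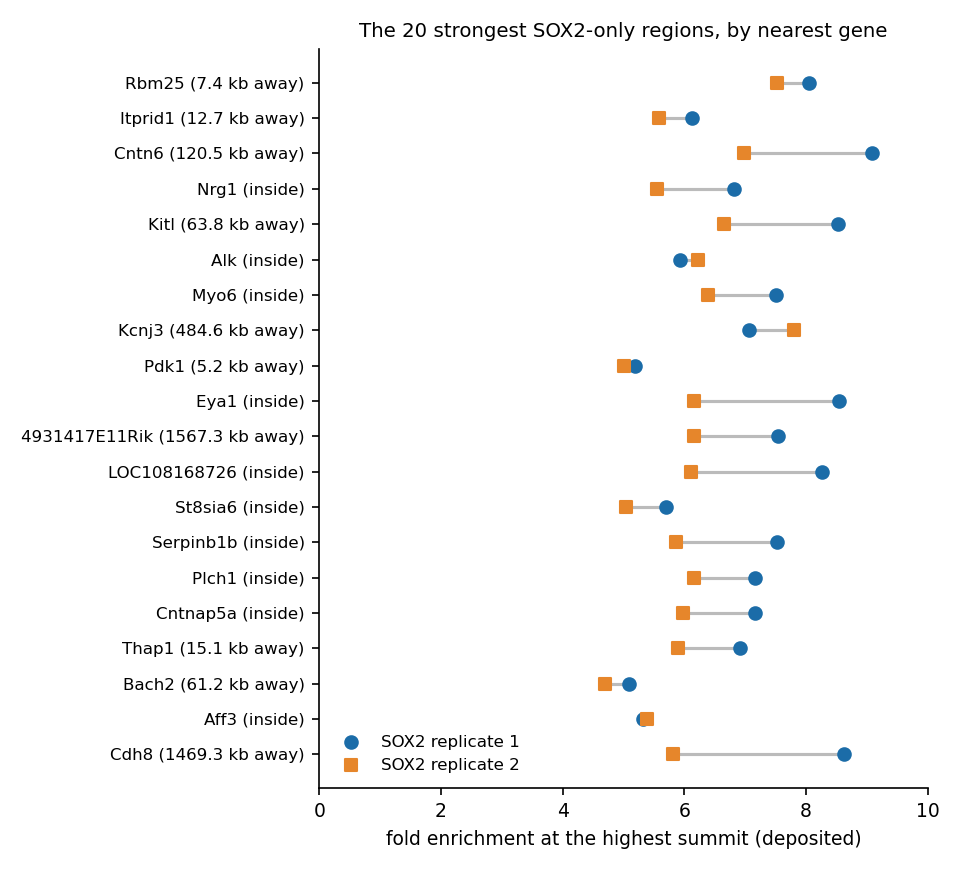
Fold enrichment at the highest summit (horizontal, as deposited) in SOX2 replicate 1 (circles) and replicate 2 (squares) for the 20 strongest SOX2-only regions, labelled by their nearest protein-coding gene and its distance. No SOX17FNV library has a value at these regions; the folds run up to 9.09, at Cntn6.

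Members near gene ends all ranked below these 20, since none of the 20 lay near a gene end. After Mobp the strongest were at Commd2 with pileups of 31 and 31, Ftdc2 with 35 and 27, Gm40814 (a gene within the span of Pkd1l1) with 33 and 27, and H3c14, a histone H3 gene, with 41 and 38. Next came H2-Eb2, a class II histocompatibility gene, with 28 and 29, Gm21976 with 40 and 35, Olfr286 with 32 and 24, Cdo1 with 39 and 34, and Pigr. The nearest SOX17FNV peaks lay 524 bp (Gm21976) to 25207 bp (Ftdc2) from these 10.

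Members were spread over many genes. The 921 members within 50 kb of a gene were assigned to 843 genes, of which 779 had 1 member, 53 had 2, 8 had 3 and 3 had 4. The genes with 4 were Sh3rf3 (4 of its 19 regions), Prag1 (4 of 20) and Dpp6 (4 of 56). Those with 3 were Id4, Stac, Gpr39, Ncam1, Clnk, Elavl2, Chn2 and Ptprn2. Of these 11 genes, chosen for their members, Dpp6 had 2 strong SOX17FNV-only regions among its 56 regions and the others had none. Such regions made up 0.484% of all assigned regions, so few would be found at so few genes. With SOX2 replicate 2 left out of the rule, Prag1 had 10, Dpp6 7, Chn2 and Ptprn2 6, and Clnk and Ncam1 5, and without SOX17FNV replicate 1 Ptprn2 had 5. Stricter rules left fewer: at a -log10 q of at least 5, Sh3rf3, Id4, Clnk, Elavl2 and Chn2 had 1 each, and at a fold of at least 4, Clnk, Elavl2 and Chn2 had 0.

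Prag1, a pseudokinase gene, and Id4, an inhibitor of helix-loop-helix factors, carried the runs with the most members, 4 each. At Prag1 4 members lay between 36084899 and 36156042 on chromosome 8, with pileups of 22 and 20, 47 and 35, 46 and 30, and 48 and 39 in the SOX2 libraries. At Id4 a run of 4 members lay between 48252380 and 48324669 on chromosome 13. The 3 within 50 kb of the gene had pileups of 32 and 28, 31 and 23, and 20 and 22. The nearest member was otherwise far: its median distance was 499.6 kb, 131 members (10.5%) had another within 50 kb and 1115 had none. There were 51 pairs and 9 runs of 3 or more at that spacing.

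Ncam1, a neural cell adhesion gene, held 3 members inside its span on chromosome 9, at 49653450 to 49654862, 49728134 to 49728486 and 49729040 to 49729875. Their pileups were 32 and 19, 39 and 21, and 26 and 30, so the first 2 were higher in SOX2 replicate 1 and the last in replicate 2. At Stac 3 of 14 regions were members and none was called in all 4 libraries. The Stac members lay inside the gene and 34.389 and 41.376 kb outside it. Elavl2, a neuronal RNA-binding protein gene, held 3 members within 20.498 kb, with pileups of 24 and 20, 37 and 21, and 20 and 20.

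At the genes of 19 lists (260 genes found), chosen with earlier results of these data known, 28 members lay inside or within 50 kb of 25 genes. That was 28 of 3234 regions (0.866%), where 921 of all 134164 assigned regions (0.686%) were members. Strong SOX17FNV-only regions made up 0.309% of the list regions and 0.484% of all assigned ones. The ratio to the limit had a median of 1.47 at the 28 and 1.63 at all members, and 5 of the 28 reached 2. The WNT (294 regions), primitive streak (61), germ line (104) and two-cell-like (24) lists had no member, and at the share of all assigned regions lists of these sizes would hold few. At a -log10 q of at least 5, 16 of the 28 were kept, and at a fold of at least 4 only 7.

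Among pluripotency genes, 1 of 143 general regions, 3 of 266 naive regions and 1 of 175 formative regions were members. The general one lay inside Sox2 itself, on chromosome 3 from 34650574 to 34651198. Its pileups were 56 and 48, but the local background was also high, giving folds of 2.56 and 2.98, and a SOX17FNV peak lay 367 bp away. The lentivirus supplied SOX2 to this group only, and reads from it cannot be told apart there from those of any other Sox2 copy in the cells. The naive genes were Klf2, with pileups of 65 and 45 and folds of 2.77 and 2.34, Tbx3 with 38 and 29, and Tfcp2l1 with 39 and 27. The Klf2 and Tbx3 members lay 2.31 and 42.934 kb outside the gene, and the Tfcp2l1 member lay inside. The formative gene was Etv5, with 55 and 41. Their ratios to the limit were 1.28 at Sox2, 1.26 at Klf2, 1.16 at Tbx3, 1.08 at Tfcp2l1 and 1.07 at Etv5, so these members lay close to what the SOX17FNV libraries could have called.

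Of the 4 signalling lists, 3 had members, all few in number. In the FGF, ERK and receptor tyrosine kinase list they lay at Nrg1, Alk, Spry4, an inhibitor of ERK signalling, and Fgfr1, 4 of 259 regions (1.54%). The LIF list had 2 of 147 (1.36%), the Nodal, TGF-beta and BMP list 2 of 240 (0.833%) and the WNT list 0 of 294, against 0.686% of all assigned regions. The Spry4 member, 20.499 kb from the gene, had pileups of 32 and 29. The Fgfr1 member, 14.971 kb from the gene, had 20 and 22, with a SOX17FNV peak 56 bp away. Lifr, the receptor for LIF, had 2 members, 18.886 and 1.594 kb outside the gene, with pileups of 31 and 27 and of 20 and 20. In the Nodal, TGF-beta and BMP list 1 member lay 37.529 kb from Tgfbr2, with 21 and 33. The other lay 21.772 kb from Smad7, an inhibitor of the pathway, with 55 and 43.

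The remaining list members lay at adhesion genes (Ncam1 and Itgb1, an integrin gene with 25 and 27), neural genes (Eya1 and Meis2, 19 and 19), endothelial and blood genes (Pecam1 with 55 and 34, Runx1 with 18 and 24) and chromatin genes (Tet2 with 38 and 26, Suz12 with 28 and 28). Single members were assigned to Col4a1, Tfap2a, Sox6, Twist2 and Ywhaz. The Tet2, Twist2 and Ywhaz members lay 31.978, 24.06 and 12.153 kb outside the gene. Fibroblast and housekeeping genes, with 1 member each at 82 and 69 regions, were thus not without members.

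Members were found on every chromosome used, from 0.517% of regions on chromosome 17 to 1.13% on chromosome 13. In stretches of 5 Mb the densest were chromosome 2 from 70 to 75 Mb with 11 members of 534 regions, chromosome 8 from 35 to 40 Mb with 10 of 283, and chromosome 12 from 115 to 120 Mb with 9 of 162. On that stretch of chromosome 12, which holds Ptprn2, Rapgef5, Sp8 and Sp4, the shared regions were themselves 1.21 times as high in the SOX2 libraries relative to SOX17FNV, and no strong SOX17FNV-only region was found. Over all members that local ratio had a median of 0.992, and 37 of 1222 with a value (3.03%) lay in a stretch above 1.1, against 1.23% of shared regions. In an alternative chosen after seeing the data, without stretches above 1.1 or below 0.9, there were 1194 members and 781 mirror regions, and Ptprn2 had 0.

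At the threshold of 4, the members just inside lay near Il17f, with -log10 q values of 6.49 and 4.01 in replicates 1 and 2, in Afap1 with 5.36 and 4.01, and in Mbp with 4.02 and 7.59. Just outside were regions in Polr3b with 3.999 and 4.84, in Ripor1 with 7.23 and 3.99 and in Rbfox2 with 3.99 and 7.40.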

How the data were processed

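ATAC-seq was analysed from 4 deposited peak lists, 1 per library, 2 per group. Per the submitters' processing notes, Bowtie2, SAMtools and MACS2 and the build mm10 were used. Versions, settings and any read shift for transposase insertion: not given in the sources used here. The authors deposited for each summit a score, a fold enrichment ratio over local background, the -log10 of the p-value and q-value, and a summit offset. These values are the authors' own and served to filter, rank and describe peaks of 1 list.

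Distinct intervals were merged into regions with Python 3. Read totals are not in the peak lists, so depth was read from pileups solved from the deposited fold and Poisson p-value. The needed pileup is the smallest that MACS2's formula would call in a SOX17FNV library at the SOX2 local background scaled by the lists' background pileups. Relative pileups used the median of regions called in all libraries. A region was assigned to the nearest protein-coding gene span within 50 kb (GRCm38.p6), and start sites on 1 chromosome were not used here. Intervals of shares are exact binomial at 95% and cover counting error only. The labels call the replicates biological, without saying whether they came from separate cultures.

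The members and gene lists were chosen with earlier results of these data known. Named regions are the 20 strongest by the lower percentile, the 10 strongest near a gene end, those at list genes, 3 on either side of the threshold, and genes with at least 3 members; promoters covered by members and the most isolated members were added after their values were seen. The planned motif counts at summits were not run. Alternatives were other -log10 q, fold, merging, spacing, list length and gene-end settings, and leaving out each library. Calculations were tested on simulated data.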

Additional observations from a re-analysis of the deposited data

How the results depend on the processing

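The direction of the difference between the groups' counts, 449 more strong SOX2-only than SOX17FNV-only regions, held under every setting of threshold, merging, spacing and list length tried and reversed when SOX17FNV replicate 2 (-3286) or SOX2 replicate 1 (-1142) was left out; the cause was not tested. A -log10 q of at least 3, 5 or 10 gave 2202, 745 or 111 SOX2-only and 1364, 417 or 23 SOX17FNV-only regions. The difference was 838 at 3 and 88 at 10, and the median width was 512.5, 618 and 735 bp. A fold of at least 4 gave 299 and 228 regions, a difference of 71, a width of 669 bp, 2.34% near a gene end and 32.4% over 50 kb from any gene. At a -log10 q of 10 that last share was 29.7%, and in lists of equal length it was 23.3%, with 1223 SOX17FNV-only regions. A gene end taken as 2 kb gave 7.38% near one. In an alternative chosen after seeing the data, regions with a scaled pileup of at least 1.5 times the needed one left 180 SOX17FNV-only regions, a difference of 692, 2.87% near a gene end, 30.6% over 50 kb away and a width of 605 bp.

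Leaving out each library in turn gave 1674 to 7177 SOX2-only and 1372 to 4960 SOX17FNV-only regions, differences of -3286 to 5805, 42.2 to 48.3% inside a gene, 4.14 to 5.63% near a gene end, 21.2 to 25.3% over 50 kb from any gene and widths of 368 to 591.5 bp. Such a rule asks for fewer libraries, so the 20 strongest members and the 28 at list genes are kept by construction. Under other settings that is not so for the list genes: 16 of the 28 were kept at a -log10 q of 5, 3 at 10, 7 at a fold of 4 and 12 at a scaled pileup of 1.5 times the needed one, while all 20 strongest were kept under these 4. No paired analysis was possible because the members come from a rule over peak lists and not from a test. Peak lists hold no values below the calling limit, which bounds what can be said of the SOX17FNV libraries at the members.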
